A study of Mus musculus with 42 samples.

Results

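The annexins described here are the 10 genes Anxa1, Anxa2, Anxa3, Anxa4, Anxa5, Anxa6, Anxa7, Anxa8, Anxa11 and Anxa13, chosen by symbol from a table of 40701 symbols. They were chosen with earlier results of these libraries known, in which Anxa8 and Anxa1 stood out in the proximal tubule fraction at day 10. Levels and differences of the annexins in that fraction at day 10 are therefore given as a description without a test, against contralateral kidneys, against day 5 and against Total. The earlier results named Anxa8 and Anxa1 against day 5, and Anxa8 against contralateral kidneys. In that fraction the day 5 values of both, and the contralateral values of Anxa8, thus took part in the choice. Their p-values that use these values are not independent tests. The study took renal cortex from 12-week-old male and female mice with 1 ureter tied off (unilateral ureteral obstruction, UUO), a model of kidney injury and fibrosis. Obstructed kidneys were collected at day 5 or day 10, and contralateral kidneys, labelled as healthy controls, served as the reference. From each state there was RNA held on anti-GFP beads, labelled proximal tubule (PT), by translating ribosome affinity purification, which pulls down tagged ribosomes together with the RNA they carry. A library labelled total kidney (Total) was made beside it. Every state of a fraction had 7 libraries, 4 from males and 3 from females, which made 12 groups and 42 libraries. The mouse strain, the promoter that drives the tagged ribosomal protein, the day of the contralateral kidneys and whether Total is the RNA left unbound by the beads are not given in the sources used here. Nothing in the labels says that replicates came from separate animals, so p-values measure the spread between these libraries.

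Annexins are cytosolic proteins that bind acidic phospholipids in membranes when calcium is present. They take part in membrane repair, vesicle traffic, links between membranes and the actin cytoskeleton, and, outside the cell, in the control of inflammation and of plasmin formation. Several bind small S100 proteins, which join a pair of annexin molecules into a complex that bridges membranes.

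The sequence just upstream of 4 annexins is shown because their levels carry most of what follows: Anxa2 and Anxa5 among the most abundant after obstruction, and Anxa1 and Anxa8 for their course between day 5 and day 10. Each is the 250 bases before the annotated start of the gene, from RefSeq on GRCm38.p6, read 5′ to 3′ on the strand of the gene, with matches to 5 short motifs in capitals. Anxa1 lies at chr19:20390672-20390921 on the minus strand, Anxa2 at chr9:69453433-69453682 on the plus strand, Anxa5 at chr3:36475888-36476137 on the minus strand and Anxa8 at chr14:34085729-34085978 on the plus strand.
Anxa1: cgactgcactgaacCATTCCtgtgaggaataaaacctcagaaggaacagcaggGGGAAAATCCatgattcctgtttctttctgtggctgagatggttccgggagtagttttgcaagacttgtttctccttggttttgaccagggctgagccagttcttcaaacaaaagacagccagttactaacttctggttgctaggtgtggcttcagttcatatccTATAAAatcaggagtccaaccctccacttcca
Anxa2: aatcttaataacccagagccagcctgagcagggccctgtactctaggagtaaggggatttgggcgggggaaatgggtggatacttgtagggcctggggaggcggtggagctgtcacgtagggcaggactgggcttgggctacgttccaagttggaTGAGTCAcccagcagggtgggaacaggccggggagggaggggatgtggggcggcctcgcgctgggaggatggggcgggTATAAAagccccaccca
Anxa5: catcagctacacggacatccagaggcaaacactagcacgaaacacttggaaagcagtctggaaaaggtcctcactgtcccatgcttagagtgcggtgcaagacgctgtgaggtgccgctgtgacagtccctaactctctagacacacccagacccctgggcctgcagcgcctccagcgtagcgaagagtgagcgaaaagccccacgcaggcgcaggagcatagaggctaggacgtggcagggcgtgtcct
Anxa8: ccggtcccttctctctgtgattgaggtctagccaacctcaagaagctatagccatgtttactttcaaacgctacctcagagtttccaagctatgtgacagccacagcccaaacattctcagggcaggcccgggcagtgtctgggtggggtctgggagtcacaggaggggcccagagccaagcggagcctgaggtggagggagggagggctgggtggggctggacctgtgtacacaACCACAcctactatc
The motifs were searched on both strands, and their shares are of 32851 such windows in the RefSeq table. The AP-1 motif TGANTCA, present in 6.75% of the windows, was found in Anxa2, 95 bases before the start. The TEAD motif GGAATG, in 12.6% of the windows, was found in Anxa1 on the reverse strand, 236 bases before the start. The Runx motif TGTGGT, in 14% of the windows, was found in Anxa8 on the reverse strand, 15 bases before the start. The NF-kB motif, GGGA and CC with any 4 bases between them, in 17.6% of the windows, was found in Anxa1 at 197 bases and in 1 of the 2 windows of Anxa4 at 55 bases before the start. The TATA box letters TATAAA, in 12.4% of the windows, were found in Anxa1 at 32 bases and in Anxa2 at 17 bases before the start. None of the 5 motifs was found in the windows of Anxa5, Anxa7 or Anxa11. Windows were present for 7 of the 10 genes, and Anxa3, Anxa6 and Anxa13 had none. A match is only a match of letters in this window.

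Libraries held between 9.31 M and 43.6 M counts, with a median of 20.5 M in PT and 18 M in Total. All 10 annexins passed the filter on low counts. Anxa8, at 0.391 CPM or less in every PT library before day 10, passed it in PT only through its day 10 libraries. The summed level of 10 proximal tubule markers had a median of 16900 CPM (counts per M counts) in contralateral PT against 9270 CPM in contralateral Total, and fell to 2870 and 2310 CPM in PT at days 5 and 10. In these bulk samples fewer cells of a type and less RNA per cell cannot be told apart. Markers of some other cells rose in PT: 9 macrophage markers summed to a median of 12.5, 128 and 174 CPM in contralateral, day 5 and day 10 PT, and to 69.8, 878 and 1330 CPM in Total. The 9 fibroblast markers summed to 6.04, 39 and 60.8 CPM in PT and to 84.4, 863 and 1020 CPM in Total. Markers of other tubule segments fell in PT. There 7 loop and distal tubule markers summed to 167, 64.7 and 78 CPM, and 9 collecting duct markers to 93.1, 30 and 38.8 CPM. The 7 urothelium markers summed to at most 2.31 CPM in any PT library, and Upk1b, Upk2 and Upk3b were at 0 in contralateral PT. The 8 neutrophil markers summed to at most 2.58 CPM in PT. PT libraries also fell on either side of a gap in Lars2, a mitochondrial leucyl-tRNA synthetase: 10 libraries of all 3 states lay between 2540 and 8130 CPM and the other 11 at 12300 CPM or more, and 3 obstructed Total libraries lay between 1640 and 1900 CPM. The part of these in the annexin results was not tested, except where values within 1 side are given.

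The mixture of annexin RNA changed with obstruction in both fractions. Compared per length, in RPKM (reads scaled to gene length and to the library total), Anxa5, the phospholipid binder used as a probe for dying cells, was the most abundant in every state of either fraction by its median, and Anxa8 the least, although in PT at day 10 Anxa8 (median 2.31 RPKM) overlapped Anxa11 (2.56 RPKM) and had the higher mean share, 0.23% against 0.199%. In contralateral PT the median of Anxa5 was 48.2 RPKM and that of Anxa7 45.7 RPKM, and these neighbours overlapped between libraries. Anxa4 followed at 17.7 RPKM and Anxa13, an annexin typical of gut and kidney epithelium, at 13.5 RPKM. Anxa3 at 2.92 RPKM and Anxa2 at 2.5 RPKM were far down the order. At day 5 in PT, Anxa5 stood at 541, Anxa3 at 251 and Anxa2 at 210 RPKM, the last pair overlapping, and Anxa7 came next at 101 RPKM. Of the summed RPKM of the 10 genes in PT, the mean share of Anxa13 was 9.24% ± 1.95 (SD, n = 7) in contralateral kidneys and 0.188% ± 0.0446 at day 5. Over the same states the share of Anxa2 was 1.91% ± 0.673 and then 17.9% ± 1.88. The sum itself was 150 RPKM ± 17.6 in contralateral PT, 1190 ± 104 at day 5 and 1480 ± 225 at day 10. In Total it was 251 ± 36.3, 1110 ± 91.2 and 1190 ± 164 RPKM. RPKM is scaled to the library total, while every fold change below uses scaling factors, so the sums differ from them in scale: with library totals alone, the median log2 difference of all genes in PT at day 5 moved from 0.05 to 0.52.

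**Figure D1:**
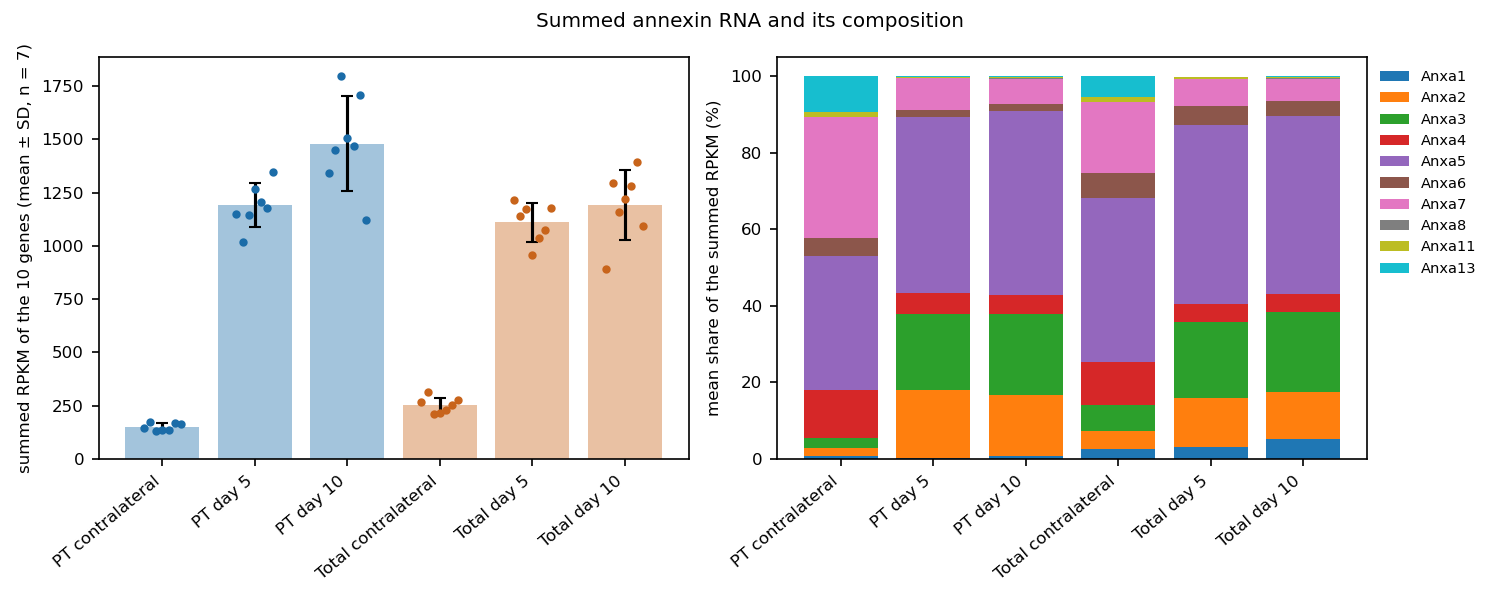
Left, summed RPKM of the 10 annexins in each fraction and state (bars: mean, whiskers: SD, points: the 7 libraries). Right, the mean share of each gene in that sum; Anxa2 and Anxa3 take 17.9% and 19.8% in PT at day 5, from 1.91% and 2.7% in contralateral PT.

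At day 5 against contralateral kidneys in PT, 6 of the 10 annexins rose and 1 fell. A gene was called when its Benjamini-Hochberg adjusted p from edgeR's quasi-likelihood test was under 0.05 and its change at least 2-fold. Of all 14932 genes tested, 18.2% were called higher and 12.4% lower. Among the 6 was Anxa8, which passed the filter in PT only through its day 10 libraries, where it was high. Nothing is read from its call. The median log2 difference of the annexins was 1.26 beside 0.05 for all genes. In Total at day 5, 5 rose and 1 fell, where 19.2% of all genes were called higher and 13.3% lower, with a median of 1.1 beside 0.04. In Total at day 10, 6 rose and 1 fell, beside 20.9% and 13.8% of all genes, with a median of 1.57 beside 0.06. Those 6 included Anxa1 and Anxa8, whose day 10 p-values in Total are not independent of the choice of genes, as given below. At day 10 in PT edgeR called 7 higher and 1 lower, where 19.7% and 12% of all genes were called; the choice of genes used this contrast, and nothing is read from the count.

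**Figure D2:**
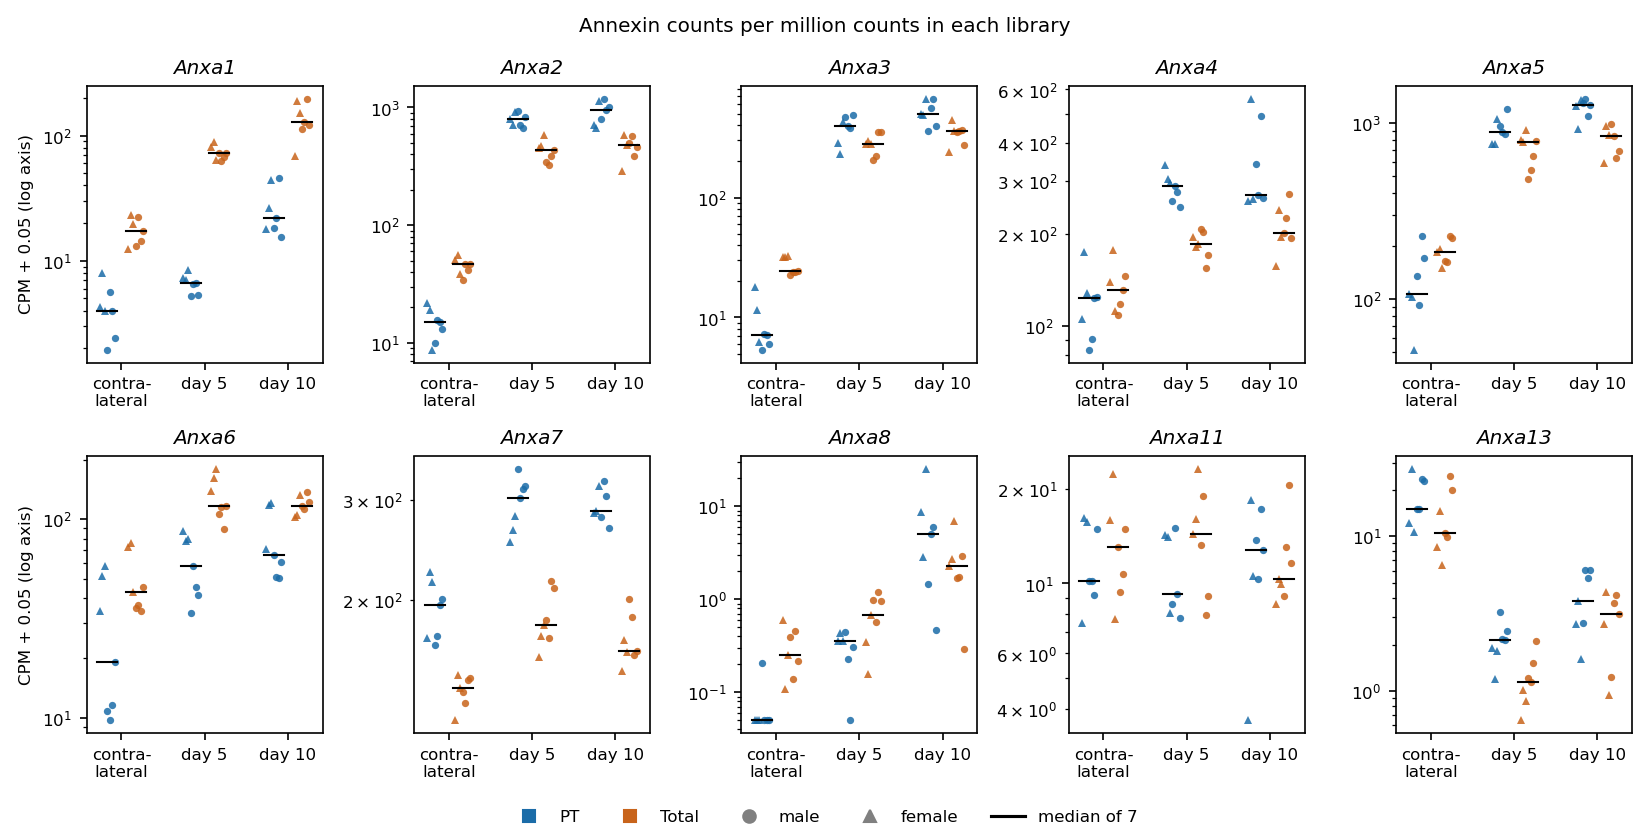
CPM of each annexin in each library (log axis, 0.05 added), in PT (blue) and Total (orange) by state, with males as circles, females as triangles and the median of 7 libraries as a bar. Anxa2, Anxa3 and Anxa5 are separated from contralateral kidneys in both fractions, Anxa13 lies lower after obstruction, and Anxa8 spreads from 0.417 to 25.1 CPM in PT at day 10.

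Anxa2, which forms a membrane-bound complex with S100a10 and binds plasminogen and its activator, made the largest rise in PT at day 5 among annexins with more than a few counts. Its lowest, median and highest levels were 8.64, 15 and 21.9 CPM in contralateral PT, 670, 795 and 933 CPM at day 5, and 668, 951 and 1190 CPM at day 10. No obstructed library overlapped a contralateral one, while days 5 and 10 overlapped. The log2 difference at day 5 was 5.73 ± 0.24 (SE), a 53.0-fold rise with an edgeR adjusted p of 1.06e-13, higher in 7 of 7 libraries than in any contralateral library. At day 10 it was 5.92, as a description. In Total, Anxa2 stood at 34.3, 46.4 and 55.3 CPM in contralateral kidneys, at 322, 433 and 587 CPM at day 5 and at 290, 479 and 579 CPM at day 10. There the groups were also separate, with log2 differences of 3.15 ± 0.16 at day 5 and 3.25 ± 0.16 at day 10 (edgeR adjusted p = 1.91e-13 and 8.53e-14).

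Anxa3, an annexin of myeloid and epithelial cells, moved much as Anxa2 did. In PT it lay at 5.31, 7.16 and 18 CPM (lowest, median, highest) in contralateral kidneys, 231, 393 and 492 CPM at day 5, and 362, 499 and 669 CPM at day 10. Its log2 difference at day 5 was 5.39 ± 0.25 (edgeR adjusted p = 7.19e-13), with no overlap, and at day 10 it was 5.88 as a description. In Total it rose by 3.26 ± 0.15 at day 5 and by 3.52 ± 0.16 at day 10 (edgeR adjusted p = 9.51e-14 and 2.68e-14), from a median of 24.2 CPM to 281 and 358 CPM.

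Anxa5 was the third annexin with a large rise. Its levels in PT were 51.2, 106 and 227 CPM in contralateral kidneys, 761, 885 and 1210 CPM at day 5, and 931, 1270 and 1380 CPM at day 10. The groups before and after obstruction did not overlap. The log2 difference at day 5 was 2.97 ± 0.21 (edgeR adjusted p = 3.13e-10), and at day 10 it was 3.38 as a description. In Total the difference was 1.85 ± 0.15 at day 5 and 2.00 ± 0.15 at day 10 (edgeR adjusted p = 3.79e-10 and 8.43e-11), with medians of 185, 778 and 841 CPM.

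Anxa1, the glucocorticoid-induced annexin whose N-terminal part acts on formyl peptide receptors to damp inflammation, took a different course in the fractions. In Total it was at 12.3, 17.2 and 23.4 CPM in contralateral kidneys and at 63.2, 73.2 and 89.8 CPM at day 5, and it rose by a log2 difference of 1.96 ± 0.21 (edgeR adjusted p = 2.34e-08). At day 10 in Total it was at 69.3, 128 and 198 CPM, 2.87 ± 0.21 above contralateral (edgeR adjusted p = 6.18e-11). Between the days in Total the difference was 0.91 ± 0.20 with an edgeR adjusted p of 0.0304, under the 2-fold limit, and the libraries overlapped. It passed the limit with Lars2 as a covariate (1.11, edgeR adjusted p = 0.0235) and without female day 10 Total replicate 1 (1.03, edgeR adjusted p = 0.00659). Same-numbered PT and Total libraries deviated together at day 10, so the day 10 p-values of Anxa1 in Total are not independent of the choice of genes. In PT the level of Anxa1 at day 5 was 5.19, 6.64 and 8.4 CPM against 1.89, 3.95 and 7.95 CPM in contralateral kidneys. These groups overlapped, and the difference of 0.62 ± 0.28 was not called (edgeR adjusted p = 0.0717). With library totals alone as the scale it was 1.08 (edgeR adjusted p = 0.00673) and was called. The day 5 PT values of Anxa1 took part in the choice of genes, so neither p-value is an independent test. At day 10 in PT the 7 libraries held 15.5, 21.9 and 45.8 CPM, all above every day 5 library, and the described log2 differences were 2.65 from contralateral and 2.03 from day 5.

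Anxa8, close in sequence to Anxa5 and known from stratified epithelia, was at 1.15 CPM or less in every library before day 10. In contralateral PT it had 3 counts, all in male replicate 1 (0.158 CPM), and 0 in the other 6 libraries. A count of 3 in total makes its ratios uncertain. At day 5 in PT it had 31 counts in 7 libraries, from 0 to 0.391 CPM, a ratio of 9.29 to contralateral PT at equal depth with a 95% counting interval from 2.9 to 47.5. Since its passing of the filter rests on the day 10 libraries, nothing is read from the edgeR adjusted p of 0.0285. The call was lost with no filter on low counts (0.0649), with limma on RPKM (0.607), with the fewer libraries on either side of the Lars2 gap (0.3 and 0.0892, at fitted differences of 4.01 and 4.75), without male day 5 PT replicate 1 (0.052) and without contralateral female PT replicate 2 or 3 (0.0525 and 0.0554). At day 10 in PT the 4 male libraries held 1.43, 5.02, 5.91 and 0.417 CPM, and the 3 female libraries 8.71, 2.78 and 25.1 CPM. Every one lay above the highest day 5 library, and 543 of the 948 counts came from female replicate 3. The ratio of day 10 to contralateral PT was 237 (81 to 1150), and 119 (40.4 to 579) without that library; these intervals cover counting error only and the contrast is a description.

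In Total, which the choice of genes did not use directly but which shares replicate numbers with PT, Anxa8 was also low before day 10. Same-numbered PT and Total libraries deviated together at day 10 (correlations of 0.19 to 0.68) and in contralateral kidneys (0.29 to 0.44). The p-values of Anxa8 in Total are therefore not independent of the choice of genes. Contralateral libraries held 0.0593 to 0.545 CPM with a median of 0.201, day 5 libraries 0.107 to 1.15 CPM with a median of 0.63, and day 10 libraries 0.24 to 6.83 CPM with a median of 2.21. Contralateral and day 5 libraries overlapped, and day 10 overlapped them through male replicate 4, its lowest library. The log2 difference at day 10 was 3.11 ± 0.51 (edgeR adjusted p = 1.38e-05), and at day 5 it was 0.90 ± 0.56 (edgeR adjusted p = 0.177), though with library totals alone the day 5 value was 1.32 and called (edgeR adjusted p = 0.0434). Between day 10 and day 5 Anxa8 was the only annexin called in Total, where 0.352% of all genes were called higher. Its difference there was 2.22 ± 0.48 (edgeR adjusted p = 0.03). That call was lost in 7 of the 14 fits without 1 library, which were those without male day 5 Total replicate 1, 2, 3 or 4, without female day 5 Total replicate 1 or 2 and without female day 10 Total replicate 3, the last at 1.89 (edgeR adjusted p = 0.159). It was also lost with the Total libraries of high Lars2 only (1.87, edgeR adjusted p = 0.235), with Lars2 as a covariate and with limma on RPKM. In PT the same contrast, as a description, put Anxa8 at 4.52 and Anxa1 at 2.03. These 2 annexins were called, where 0.422% of all genes were called higher, and nothing is read from that count. Within the PT libraries of high Lars2 Anxa8 was at 4.34 and Anxa1 at 1.83, and of 15493 genes 0 were called higher in that fit, the annexins included.

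**Figure D3:**
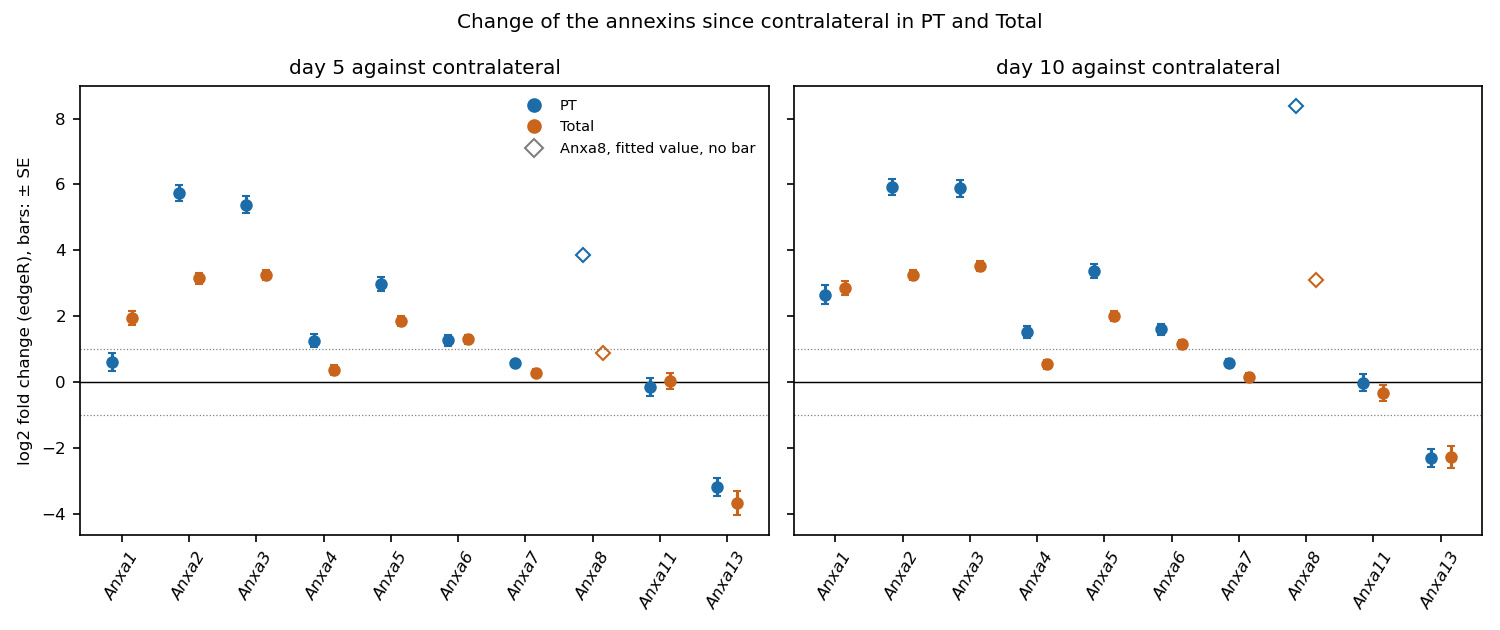
Log2 difference of each annexin from contralateral kidneys at day 5 (left) and day 10 (right) in PT and Total, with whiskers of 1 SE and dotted lines at 2-fold; Anxa8 is drawn as an open diamond at its fitted value, since its contralateral PT level rests on 3 counts. Anxa2 and Anxa3 in PT lie highest among the filled points, at 5.73 and 5.39 at day 5.

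Anxa6, the annexin with a doubled set of repeats, which binds late endosomes and cholesterol-rich membranes, rose in each fraction. It rose by 1.27 ± 0.17 in PT at day 5 (edgeR adjusted p = 3.2e-06) and by 1.30 ± 0.13 and 1.15 ± 0.13 in Total at days 5 and 10 (edgeR adjusted p = 1.23e-08 and 7.43e-08). PT libraries held 9.69, 19.1 and 58.1 CPM (lowest, median, highest) in contralateral kidneys and 33.9, 58 and 87 CPM at day 5, and these groups overlapped with the sexes pooled. Within each sex they did not overlap. Males held 9.69 to 19.1 CPM and then 33.9 to 58 CPM, and females 34.7 to 58.1 CPM and then 77.7 to 87 CPM. Anxa4, an annexin of epithelial membranes, rose in PT by 1.26 ± 0.19 at day 5 (edgeR adjusted p = 1.26e-05), from 83.1, 123 and 175 CPM to 246, 288 and 339 CPM without overlap. In Total it moved by 0.37 ± 0.14 and 0.54 ± 0.14 at days 5 and 10, under the 2-fold limit. At day 10 in PT, Anxa4 split with Lars2: the 3 libraries of low Lars2 held 340, 490 and 560 CPM, and the 4 of high Lars2 held 258 to 270 CPM. Such splits were not particular to Anxa4. At day 5 in PT, Anxa2 held 670 to 795 CPM with low and 834 to 933 CPM with high Lars2. Anxa3 held 231 to 393 and 429 to 492 CPM, and Anxa5 761 to 885 and 965 to 1210 CPM. Anxa11 split the other way at days 5 and 10, and Anxa5 split in contralateral PT. The share of all genes that split so was not computed.

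Anxa13 was the annexin that fell. In PT it went from 10.6, 15 and 27.2 CPM in contralateral kidneys to 1.15, 2.1 and 3.18 CPM at day 5, without overlap, a log2 difference of -3.19 ± 0.27 (edgeR adjusted p = 5.66e-09). In Total the difference was -3.66 ± 0.36 at day 5 and -2.27 ± 0.33 at day 10 (edgeR adjusted p = 1.17e-08 and 3e-06). The day 10 level in PT was 1.57, 3.76 and 6.06 CPM, with a described difference from contralateral of -2.30. The sum of proximal tubule markers fell over the same libraries, as given above, and its part in the fall of Anxa13 was not tested. The reference annotation lists Anxa13 as a processed transcript.

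Anxa7, an annexin that promotes membrane fusion, and Anxa11, which ties RNA granules to lysosomes, moved little. Anxa7 lay at 167, 196 and 224 CPM in contralateral PT and at 253, 303 and 340 CPM at day 5, without overlap, but its difference of 0.57 ± 0.10 stayed under 2-fold (edgeR adjusted p = 8.97e-05). With library totals alone it was 1.05 and past the limit. Anxa11 lay between 7.42 and 16.1 CPM in contralateral PT and between 7.7 and 14.9 CPM at day 5, and its differences were -0.14 ± 0.27 in PT at day 5 and 0.03 ± 0.24 and -0.34 ± 0.24 in Total at days 5 and 10, none of them called.

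Against Total, in contralateral kidneys 5 of the 10 annexins were lower in PT than in Total, where 22.9% of all genes were called lower, and 0 were called higher by edgeR (1 at an unadjusted p under 0.05), where 1.16% of all genes were; the member median was -0.95 beside -0.07. Those were Anxa1 at -2.15 ± 0.27, Anxa2 at -1.72 ± 0.17, Anxa3 at -1.77 ± 0.18, Anxa6 at -1.11 ± 0.15 and Anxa8. Anxa8 had 3 counts in PT and 32 in Total, a level 9.67-fold lower (95% counting interval 3.03 to 49.4), and its call was lost without contralateral female Total replicate 1 (edgeR adjusted p = 0.0778) and with limma on RPKM (0.672). The contralateral PT values of Anxa8 took part in the choice of genes, so nothing is read from its call or its place among the 5. Anxa6 was at -0.99, under 2-fold, with no filter on low counts. Anxa5 lay lower in PT by -0.79, under 2-fold (edgeR adjusted p = 0.000158). It passed the limit with library totals alone (-1.11) and with limma on RPKM (-1.14). The annexin higher at an unadjusted p under 0.05 was Anxa7, at 0.36 (edgeR adjusted p = 0.00081), under 2-fold. At day 5 Anxa1 at -3.52 ± 0.27 and Anxa6 at -1.17 ± 0.15 were lower in PT (edgeR adjusted p = 1.44e-13 and 3.94e-08), where 23.8% of all genes were called lower. For Anxa1 the day 5 PT values took part in the choice of genes. By edgeR 0 annexins were called higher at day 5 (4 at an unadjusted p under 0.05), where 4.02% of all genes were. Those 4 also had an adjusted p under 0.05 and missed only the 2-fold limit. They were Anxa7 at 0.62 and Anxa4 at 0.58 (edgeR adjusted p = 2.43e-07 and 0.00454), with Anxa13 and Anxa2. DESeq2 and limma on RPKM each called 2 annexins there in all. Without 1 library Anxa13, at 0.83 ± 0.34 (edgeR adjusted p = 0.0368), passed 2-fold in 3 fits, at 1.03 to 1.04: without male day 5 Total replicate 4, female day 5 Total replicate 2 or female day 5 PT replicate 2. Anxa2, at 0.82 ± 0.16 (edgeR adjusted p = 5.54e-05), passed it without female day 5 Total replicate 3 (1.01). At day 10, where the PT libraries are those the choice of genes had used, the differences are a description: Anxa1 was at -2.33 ± 0.26, Anxa8 at 1.30 ± 0.51, Anxa2 at 0.99 ± 0.16 and Anxa6 at -0.61 ± 0.15. The edgeR limits called 1 annexin lower and 1 higher, where 23% and 7.07% of all genes were called, and nothing is read from the count. Without female day 10 PT replicate 3 the value of Anxa8 was 0.83, and in the fits without 1 library that of Anxa2 reached up to 1.17, without female day 10 Total replicate 2.

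**Figure D4:**
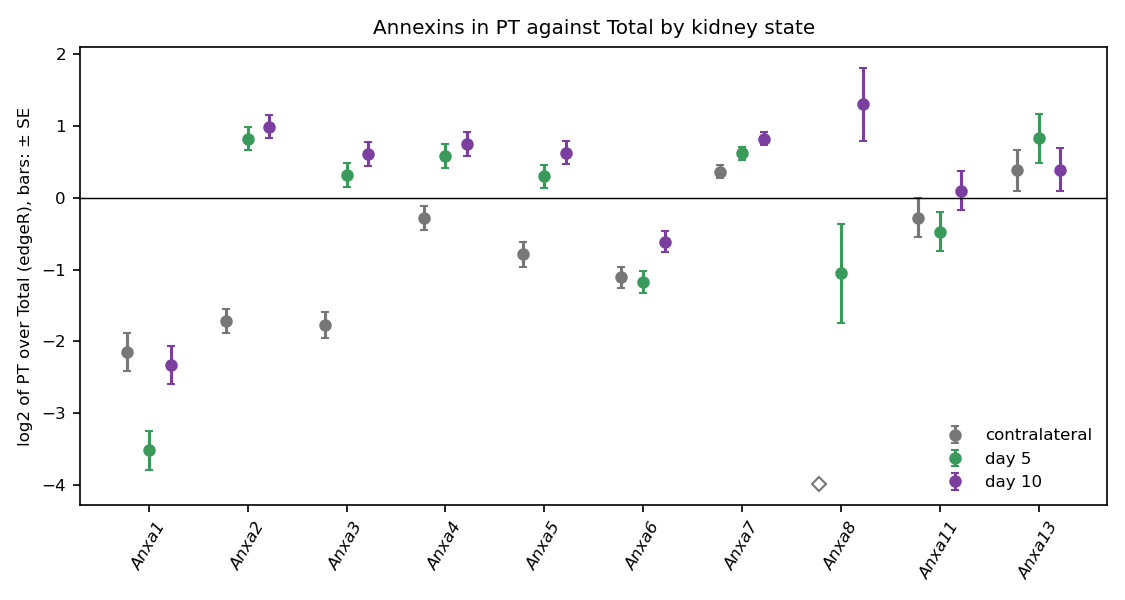
Log2 ratio of PT over Total for each annexin in contralateral kidneys, at day 5 and at day 10, with whiskers of 1 SE; the contralateral value of Anxa8 is an open diamond because it rests on 3 counts in PT. Anxa1 is below 0 in all 3 states, while Anxa2 and Anxa3 pass from -1.72 and -1.77 to 0.82 and 0.32 at day 5.

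The change from contralateral was larger in PT than in Total for 3 annexins at day 5 and smaller for 1, by the interaction of fraction and state, where 3.02% and 1.24% of all genes were called. Anxa2 differed by 2.55 ± 0.24, Anxa3 by 2.09 ± 0.25 and Anxa5 by 1.08 ± 0.23 (edgeR adjusted p = 5.65e-10, 2.07e-07 and 0.00196). Anxa1 differed the other way, by -1.37 ± 0.36 (edgeR adjusted p = 0.0161), and this call was lost without contralateral female PT replicate 2 (-1.17, edgeR adjusted p = 0.0596). The day 5 PT values of Anxa1 took part in the choice of genes, so this is not an independent test. The value of Anxa5 fell under 2-fold with RLE size factors (0.99), with DESeq2, and without contralateral female PT replicate 3 (0.95) or contralateral male PT replicate 2. In this day 5 interaction DESeq2 called 3 annexins in all and limma on RPKM 4. At day 10 the interaction includes the PT contrast that the choice of genes used, so its values are a description. Anxa2 was at 2.71 ± 0.24, Anxa3 at 2.39 ± 0.25, Anxa5 at 1.42 ± 0.23, Anxa4 at 1.03 ± 0.24, Anxa1 at -0.18 ± 0.36 and Anxa8 at a fitted 5.29. The edgeR limits called 5 annexins higher and 0 lower, where 4.68% and 1.08% of all genes were called, and nothing is read from the count; DESeq2 called 4 and limma on RPKM 3, and 0 annexins were lower at an unadjusted p under 0.05. The value of Anxa4 lay between 0.86 and 0.98 in 5 other fits of all libraries, and was 0.83 without female day 10 PT replicate 2. In Total, macrophage and fibroblast marker sums were higher than in PT in every state, as given above, and their part in these differences was not tested.

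Females held more Anxa6 than males in contralateral PT. The 4 male libraries lay at 10.8, 9.69, 11.6 and 19.1 CPM and the 3 female libraries at 34.7, 51.6 and 58.1 CPM. The log2 difference was 1.92 ± 0.24 (edgeR adjusted p = 2.48e-05), and Anxa6 was the only annexin of 10 called between the sexes in contralateral PT, where 2% of all genes were called higher in females. The sexes did not overlap for Anxa6 at day 5 or day 10 either, with differences of 0.91 ± 0.24 and 0.86 ± 0.24 that were not called (edgeR adjusted p = 0.0855 and 0.0617). Without female day 10 PT replicate 1 the latter was 1.07 and called (edgeR adjusted p = 0.027). At day 5 in PT the sexes were also apart for Anxa1 and Anxa4, higher in females, and for Anxa7 and Anxa13, lower in females. The share of all genes so separated was not computed, and with 4 and 3 libraries nothing is read from it. Without contralateral male PT replicate 2, Anxa5 was called lower in females (-1.02, edgeR adjusted p = 0.0259), and without contralateral female PT replicate 3, Anxa3 was called higher (1.21, edgeR adjusted p = 0.0178). The interaction of sex with obstruction was -1.01 ± 0.34 at day 5 and -1.06 ± 0.34 at day 10 for Anxa6 and was not called (edgeR adjusted p = 0.304 and 0.357). In contralateral Total the sex difference of Anxa6 was 0.74 ± 0.18, under 2-fold (edgeR adjusted p = 0.0185), and the sexes overlapped. For Anxa6 in Total they were apart at day 5, at 89.7 to 117 CPM in males and 139 to 179 CPM in females, and overlapped at day 10. Also apart in Total were Anxa3 in contralateral kidneys and Anxa2 at day 5, higher in females, and Anxa13 at day 5, lower in females. Here too the share of all genes was not computed. By edgeR, 0 annexins were called between the sexes in PT at day 5 and day 10, where 0.851% and 2.22% of all genes were, and at an unadjusted p under 0.05 there were 1 and 3. In Total 0 were called in contralateral kidneys, at day 5 and at day 10, where 2.76%, 0.429% and 1.13% of all genes were, and 2, 1 and 1 had an unadjusted p under 0.05. DESeq2 and limma on RPKM also called 0 in these 5 comparisons. For Anxa8 at day 10 in PT the difference was 1.95 ± 0.77 (edgeR adjusted p = 0.263).

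**Figure D5:**
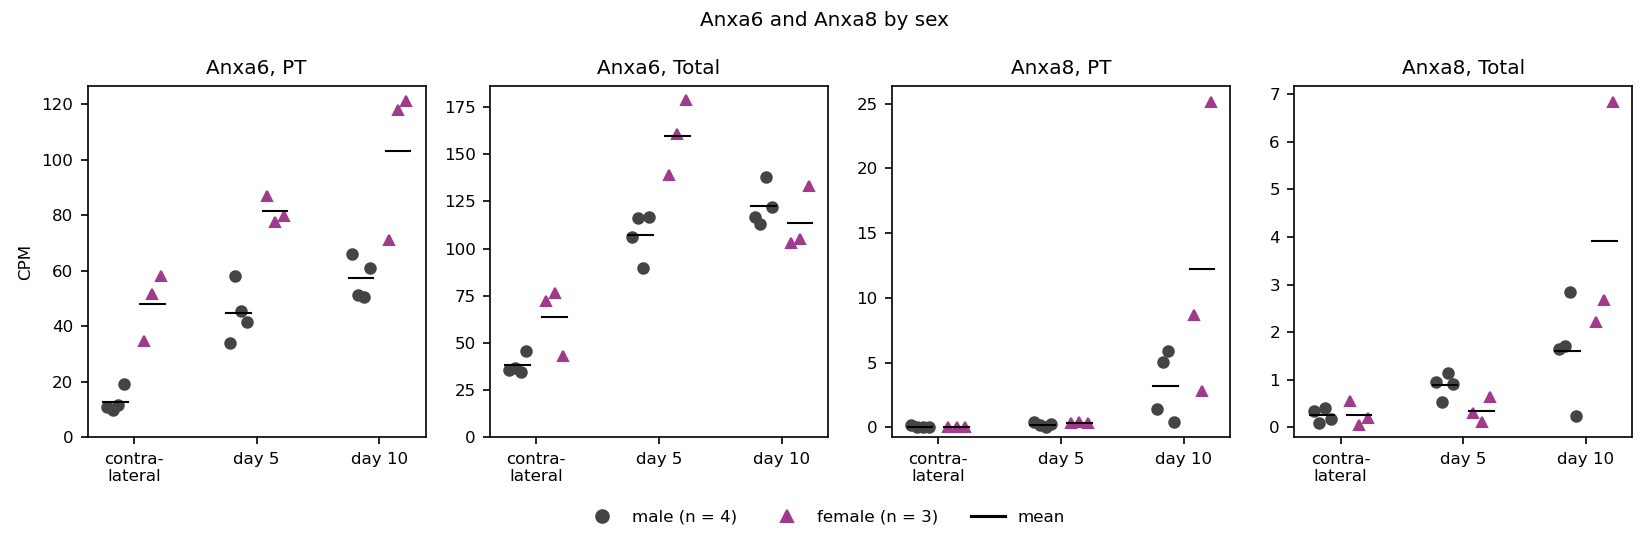
CPM of Anxa6 and Anxa8 in PT and Total by state, with 4 male libraries (circles), 3 female libraries (triangles) and the mean of each as a bar; the axes differ between panels. For Anxa6 in PT the highest male library lies below the lowest female library in all 3 states, and for Anxa8 female replicate 3 is the highest at day 10 in both fractions.

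RNA of genes whose proteins bind annexins or act with them was followed on 4 lists. These lists, used here and below, were chosen with earlier results of these data known. Their counts beside the background are thus a description, and their p-values are not independent tests. Of 8 binding partners, 6 rose in PT at day 5, where 18.2% of all genes were called higher, and Sri at 0.49 and Pdcd6 at 0.17 were not called. The list had a median log2 difference of 2.59 beside 0.05 for all genes. S100a6 rose by 5.11 ± 0.43, Dysf, the membrane repair protein dysferlin, by 3.95 ± 0.27, and S100a11, a partner of Anxa1, by 3.67 ± 0.30 (edgeR adjusted p = 1e-08, 2.31e-10 and 2.66e-09). S100a10, the partner of Anxa2, named here after its values were seen, rose by 1.93 ± 0.15 (edgeR adjusted p = 1.9e-09). In Total 5 partners rose at day 5 and 6 at day 10, where 19.2% and 20.9% of all genes were called higher, with medians of 1.29 and 1.49 beside 0.04 and 0.06. The rise of Dysf at day 5 was larger in PT than in Total, by 2.64 ± 0.28 (edgeR adjusted p = 1.53e-08), as was that of S100a11, by 1.32 ± 0.33 (edgeR adjusted p = 0.00876).

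Plasminogen activation, in which the complex of Anxa2 and S100a10 takes part, was followed in 7 genes, 6 of them tested in PT. At day 5 in PT 5 rose, beside 18.2% of all genes, among them the receptor Plaur by 5.39 ± 0.30 and the activator Plat by 4.06 ± 0.19 (edgeR adjusted p = 9.96e-12 and 8.42e-13). In Total 4 of 5 tested rose at each day, beside 19.2% and 20.9% of all genes at days 5 and 10, and Plaur rose by 3.56 ± 0.22 at day 5 and by 3.20 ± 0.22 at day 10 (edgeR adjusted p = 4.5e-12 and 1.41e-11). Of 15 membrane repair genes, 14 were tested, and 6 rose in PT at day 5, 3 in Total at day 5 and 4 in Total at day 10. With 18.2%, 19.2% and 20.9% of all genes called higher in these comparisons, the counts in Total are near the background. Myof, the dysferlin relative myoferlin, rose by 3.37 ± 0.24 in PT at day 5 and by 2.43 ± 0.14 in Total (edgeR adjusted p = 2.88e-10 and 1.42e-12). Dysf, Ahnak and Pdcd6 stand on both the partner and the repair list.

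The formyl peptide receptors, through which extracellular Anxa1 acts, could be tested in Total only. Of 3 genes, Fpr1 and Fpr2 passed the filter there and both rose, where 19.2% of all genes at day 5 and 20.9% at day 10 were called higher, by 2.33 ± 0.57 and 2.39 ± 0.56 at day 5 and by 3.34 ± 0.55 and 3.51 ± 0.54 at day 10 (edgeR adjusted p = 0.00126, 0.000824, 1.48e-05 and 5.29e-06). In the fit of all libraries both were lower in PT than in Total at day 5, Fpr1 by a log2 difference of -5.45 ± 0.84 and Fpr2 by -4.07 ± 0.70 (edgeR adjusted p = 1.49e-06 and 9.8e-06). Neutrophils and macrophages carry these receptors. The neutrophil markers summed to a median of 0.98 CPM in PT and 19 CPM in Total at day 5, the macrophage sums are given above, and their part was not tested.

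The genes whose profile was most like that of each annexin were found over 17110 genes and 42 libraries, as the smallest root mean square difference of log2 CPM after centring each gene on its own mean. For Anxa2 the nearest was Anxa3 (0.35), ahead of Cmtm3 (0.40) and Mapk11 (0.49), where the standard deviation of Anxa2 itself was 2.26. Cmtm3 was nearest to Anxa3 (0.34). Anxa5 was most like Elf3 (0.34), Tes (0.35) and Litaf (0.40), and Anxa1 like Tmsb4x (0.56), Cnn2 (0.60) and Fam114a1 (0.63). Anxa13 was most like Aspa (0.60), Upb1 (0.60) and Eci3 (0.61). For Anxa8 the nearest, 2810468N07Rik, was 1.11 away, beside a standard deviation of 1.97. Anxa4 was nearest to Bcl10 (0.26), Anxa6 to 5730409E04Rik (0.45), Anxa7 to Drg1 (0.19) and Anxa11 to Ciz1 (0.31).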

How the data were processed

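Libraries were grouped by the labels' titles, and all columns were mapped. The deposited tables hold raw counts per gene symbol, and the authors' RPKM of the same genes; STAR 2.0.4b, Subread and featureCounts 1.4.5 are named in the submitters' processing notes. Genome build, annotation and strand setting are not given in the sources used here. Opposite-strand genes that overlap Anxa1, Anxa2, Anxa8 and Anxa11 in GENCODE M21 had at most 13 counts in a library. Depth ranged from 9.31 to 43.6 M counts.

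Counts were fitted in R 4.3.3 with edgeR 4.0.16 (filterByExpr by group, TMM, robust quasi-likelihood fit, 1 mean for each of 12 groups, sexes weighted equally): the 21 PT libraries, the 21 Total libraries and, across fractions, all 42. Calls needed a Benjamini-Hochberg adjusted p under 0.05 over all genes and at least 2-fold. SE was the log2 difference divided by the square root of F, an approximation. In all, 21 comparisons were made. CPM use TMM-scaled totals of all libraries. Counting intervals are 95%, exact, and cover counting error only. The fits were tested on simulated data.

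The members and lists were chosen with earlier results of these data known. All 10 annexins are named, with Anxa9 and Anxa10; from each partner list up to 3 called genes each way, with S100a10 added, after its values were seen, as the partner of Anxa2, and 1 gene that the rule names not reported here; and the 3 most alike genes of a member, some left out. Alternatives were RLE factors or library totals, no filter, no minimum fold, DESeq2 1.42.0, limma 3.58.1 on log2(RPKM + 1), the replicate block, Lars2 as a covariate or by side, and leaving out each library. Restricting Total to high Lars2 was added after seeing the data. Replicate numbers are shared by groups in the labels. Same-numbered libraries deviated together, in 7 of 7 pairs with a correlation above 0.1, for PT with Total in contralateral kidneys (0.29 to 0.44) and at day 10 (0.19 to 0.68) and for contralateral with day 10 Total (0.15 to 0.36). By this check the numbers pair these groups. For the others it leaves pairing unsettled: PT with Total at day 5 had 5 of 7 pairs above 0.1 (-0.09 to 0.46).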

Additional observations from a re-analysis of the deposited data

Results flagged for a closer look

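Among 60 groups of 4 male libraries, 4 held a library far from the other 3, where chance gives about 1 in 20. Anxa1 was at 198 CPM in male day 10 Total replicate 3, with the others at 114, 121 and 128. Anxa3 was at 275 CPM in male day 10 Total replicate 4, with the others at 352, 358 and 366. Anxa8 was at 0.158 CPM in contralateral male PT replicate 1, with the others at 0. Anxa11 was at 14.8 CPM in contralateral male PT replicate 4, with the others at 9.16, 10.1 and 10.1.

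The change from contralateral kidneys differed between PT and Total, by the interaction in the fit of all libraries, on the log2 scale. At day 5 the difference was -1.37 for Anxa1, whose day 5 PT values took part in the choice of genes, 2.55 for Anxa2, 2.09 for Anxa3 and 1.08 for Anxa5. At day 10, as a description of a difference that includes the PT contrast used in choosing the genes, it was 2.71 for Anxa2, 2.39 for Anxa3, 1.03 for Anxa4 and 1.42 for Anxa5, and a fitted 5.29 for Anxa8.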

How the results depend on the processing

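No called result reversed in the alternatives run: 424 of 451 counts of annexins called stayed within 1.5 times, and 4403 of 4510 values of single annexins kept their call or lack of one, or for described contrasts moved by less than the spread between libraries. Uncalled values near 0 could change sign: Anxa11 in PT at day 5 ranged from -0.32 to 0.36. The cause of the changes was not tested. For Total at day 10 against day 5 (1 called), there were 2 with no minimum fold, 2 with the replicate block and 2 with DESeq2, but 0 with limma on RPKM and 0 in Total libraries of high Lars2; without 1 library there were 0 to 2. The replicate block, which could not be fitted between the sexes, moved no other count of annexins by over 1.5 times and changed no other call. The added annexin was Anxa13, at 1.31 (edgeR adjusted p = 0.023) beside 1.39 (0.0846) without the block. In these groups 2 of 7 same-numbered pairs had a correlation above 0.1. For PT at day 10 against day 5 (2), 0 were called in PT libraries of high Lars2, where Anxa8 was at 4.34 and Anxa1 at 1.83 and 0 of 15493 genes were called higher. For PT against Total, no minimum fold gave 6 at day 5 (2) and 8 at day 10 (2), where library totals, no filter and limma each gave 1 and leaving out 1 library 1 to 3. For the day 10 interaction (5) limma gave 3. Between the sexes, no minimum fold gave 1 in contralateral Total (0); without 1 library there were 1 to 2 in contralateral PT (1) and 0 to 1 in PT at day 10 (0). Library totals alone changed the split of all genes called higher and lower from 2724 and 1848 to 4317 and 873 in PT at day 5, from 2943 and 1790 to 4290 and 886 in PT at day 10, from 3220 and 2233 to 4816 and 1177 in Total at day 5, from 3506 and 2308 to 4725 and 1495 in Total at day 10, and from 1209 and 3942 to 543 and 4587 for PT against Total at day 10. The depth limits Anxa8, with 3 counts in contralateral PT.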

Other observations

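Of the other annexin genes in the tables, Anxa10 was at 0 in every library and Anxa9 was low. Anxa9 had a median of 0.674 CPM in contralateral PT and 2.31 CPM at day 5, and rose by a log2 difference of 1.76 ± 0.30 (edgeR adjusted p = 5.01e-05). In Total it rose by 2.90 ± 0.22 at day 5 and by 2.72 ± 0.22 at day 10 (edgeR adjusted p = 1.48e-10 and 2.85e-10), from 1.44 CPM to 10.8 and 9.72 CPM. It was lower in PT than in Total at day 5, with a log2 difference of -2.29 ± 0.24 (edgeR adjusted p = 3.11e-10).

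Chosen after its values were seen, the order of Anxa8 among the day 10 kidneys had the same ends in both fractions. Male replicate 4 was the lowest, at 0.417 CPM in PT and 0.24 CPM in Total, and female replicate 3 the highest, at 25.1 and 6.83 CPM. Over the same libraries the sum of proximal tubule markers was highest in male replicate 4, at 8050 CPM in PT and 1930 CPM in Total, and lowest in female replicate 3, at 1490 and 539 CPM. The macrophage sum was highest in female replicate 3, at 348 CPM in PT and 2220 CPM in Total, beside 174 and 1330 CPM in male replicate 4. In PT it was lowest in female replicate 1, at 138 CPM, where Anxa8 was at 8.71 CPM. The fibroblast sum was 84.2 and 2220 CPM in female replicate 3 and 68.4 and 1020 CPM in male replicate 4. The urothelium sum was 0.554 CPM in PT and 3.94 CPM in Total in female replicate 3, and 1.79 and 6.64 CPM in male replicate 4. The part of these cells in the level of Anxa8 was not tested.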
